A study of Homo sapiens with 8 samples.

Results

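The genes examined here are 9 members of the machinery that elongates and ends protein synthesis in the cytosol, or partners of it: EEF1A1, EEF1A2, EEF1B2, EEF1D, EEF1G, EEF1E1, EEF2, ETF1 and TPT1. They were taken by symbol from the table of all genes, 9 of 58870 rows, and all 9 passed the filter on low counts, which 13860 genes passed. The members were listed because EEF1A1 and EEF1A2 had been seen to differ in opposite directions between the groups compared below, so their differences between those groups are given as a description, without a test.

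RNA was sequenced from Panc 10.05, a human cell line established from a pancreatic ductal adenocarcinoma. There were 4 libraries of control cells and 4 of cells overexpressing ELAPOR1, a transmembrane protein of the endosome and lysosome system. The labels give no other allele, agent, time or batch, and state neither the construct and its promoter, nor what the control cells carried, nor whether the lines were clones. They do not say that the replicates were separate cultures, so p-values measure only the spread between these libraries, which may be technical. Library totals ran from 13765509 to 18128757 estimated counts. ELAPOR1 itself, which the table lists as KIAA1324, had 1 to 4 counts in each control library and 5910 to 7368 in each ELAPOR1 library. The two-sided exact permutation test gave p = 0.0286, the lowest value that groups of 4 and 4 allow.

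The elongation factor eEF1A, bound to GTP, carries each aminoacyl-tRNA to the ribosome, the eEF1B complex recharges it by exchanging its GDP for GTP, and eEF2 then moves the ribosome along the mRNA until release factor eRF1 reads a stop codon. EEF1A1 and EEF1A2 encode alternative forms of eEF1A: the first is made in nearly all cells, while the second is the main form in mature neurons and striated muscle and has been studied as a candidate oncogene in several carcinomas. Most mRNAs of the elongation factors and of the ribosomal proteins begin with a C followed by an unbroken run of pyrimidines, the 5′ terminal oligopyrimidine or TOP motif, through which mTORC1 and LARP1 control their translation and stability.

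The transcript starts are shown first because the TOP motif, where present, lies at the first base. RefSeq promoter windows on GRCh38.p14 were matched by symbol for 7 of the 9 members. Each line gives the 12 bases before the annotated start and the 18 from it, read 5′ to 3′ on the gene's own strand, and capitals mark a C followed by at least 4 bases that are each C or T, where such a run covers the start base. The first 4 lines, chr6:73521015-73521044 on the minus strand, chr2:206159883-206159912 on the plus strand, chr19:3985446-3985475 on the minus strand and chr13:45341166-45341195 on the minus strand, hold a run. The last 3, chr11:62573874-62573903, chr5:138543219-138543248 and chr6:8102531-8102560, all on the minus strand, hold none at the start base.
EEF1A1: gccgtgaacgttCTTTTTCgcaacgggttt
EEF1B2: gtctcttcgggtCCTTTTTCCTCTCTTCag
EEF2: gacgtcagcgttCTCTTCCgccgtcgtcgc
TPT1: ggctgagtcggCCTTTTCCgcccgctcccc
EEF1G: cccgggcggcttactttgcggcagcgccga
ETF1: ggaggaagtgatgtcacaggccccatgtga
EEF1E1: tctgcaggtctcgcgtctgccaggagctac
The runs of EEF1A1 and EEF2 were 7 bases long, that of EEF1B2 was 16, and that of TPT1 was 8 and began 1 base before the annotated start. EEF1B2 has a second RefSeq start, chr2:206159597-206159626, with no run, and the second start of ETF1, chr5:138541694-138541723, has none either. Of all 35116 RefSeq windows, 4.07% hold a run counted from a C at the start base itself, on the sense strand, the strand searched. This rule is narrower than a run that covers the start base. A run whose first C lies within 10 bases of it on either side is found in 33.5%. An annotated start may lie some bases from the one used in these cells, so a window without a run says only that these letters are not at that base.

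EEF1A1 and EEF1A2 differ along their whole coding sequence, which bears on whether reads can be told apart, and the start of it is shown. Both lines give the first 90 coding bases from the GENCODE release 29 transcripts, and capitals mark the 17 positions at which they differ.
EEF1A1: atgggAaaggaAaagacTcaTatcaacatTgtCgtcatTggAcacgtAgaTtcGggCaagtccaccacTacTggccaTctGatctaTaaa
EEF1A2: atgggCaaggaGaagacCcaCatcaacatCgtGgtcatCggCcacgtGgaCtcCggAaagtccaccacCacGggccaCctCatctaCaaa
Without the stop codon the coding sequences are 1386 and 1389 bases long. Over the 1386 positions compared, 1081 were identical (78.0%). Of the 305 differences, 252 fell at the third codon position, 36 at the first and 17 at the second. The longest identical run was 20 bases. No stretch of 75 bases from the protein-coding transcripts of either gene occurred in a transcript of the other.

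EEF1A1 (ENSG00000156508.18, chromosome 6, 73515750 to 73523797, minus strand) was the most abundant member. It had 17189, 17995, 17941 and 18314 CPM (counts per 1e6 counts, scaled by TMM) in the control libraries. In the ELAPOR1 libraries it had 12342, 12265, 12276 and 12119 CPM. All 4 ELAPOR1 libraries lay below all 4 control libraries, at 12250 ± 93.9 against 17860 ± 477 CPM (mean ± SD, n = 4 each, as for all means here), a difference of -31.4%. The log2 fold change was -0.54 (SE 0.0241), and 5.82% of tested genes had a lower one. EEF1A1 alone held 1.77 ± 0.0435% of all counts in control and 1.23 ± 0.0107% in ELAPOR1 libraries.

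EEF1A2 (ENSG00000101210.12, chromosome 20, 63488012 to 63499322, minus strand) was higher in ELAPOR1 cells and far less abundant. Its levels were 19.8, 19.9, 23.0 and 21.6 CPM in control libraries, resting on 338 to 384 counts each. They were 53.2, 54.6, 52.5 and 54.5 CPM in ELAPOR1 libraries, on 729 to 944 counts. The groups were far apart, at 21.1 ± 1.51 and 53.7 ± 1.03 CPM, 2.55-fold higher with a log2 fold change of 1.35 (SE 0.0589). Among all tested genes this difference stood at percentile 99.3.

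The forms of eEF1A thus differed between the groups in opposite directions, but EEF1A1 was by far the main form in every library, and the term isoform switch, under which the genes were listed, does not describe the levels. EEF1A2 made up 0.115, 0.111, 0.128 and 0.118% of the EEF1A1 and EEF1A2 counts in control libraries. The share was 0.429, 0.443, 0.426 and 0.447% in ELAPOR1 libraries. The ELAPOR1 shares were all above the control shares, and EEF1A1 still held nearly all the counts. Per base of transcript, with median lengths of 2303 bases for EEF1A1 and 2014 for EEF1A2, the share was 0.135 ± 0.00841% and 0.499 ± 0.0122%.

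**Figure D1:**
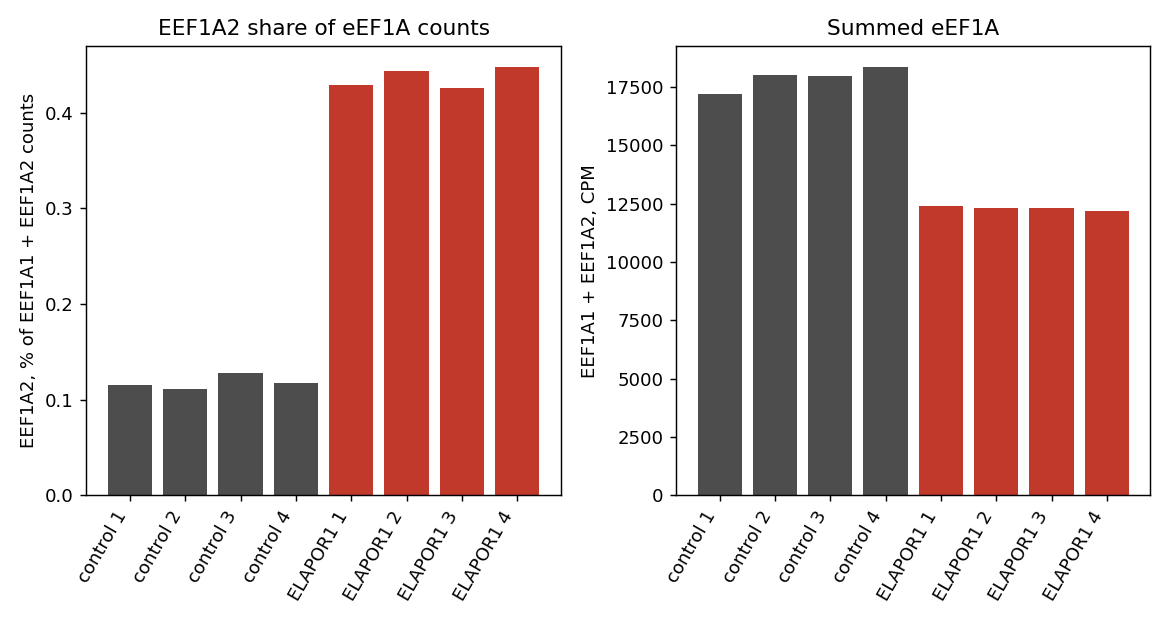
Left, EEF1A2 as a percentage of EEF1A1 plus EEF1A2 counts in each library, and right, the summed CPM of both genes, with control libraries in grey and ELAPOR1 libraries in red and 1 bar a library from 0. The share was higher in each ELAPOR1 library, at 0.426 to 0.447%, while the sum was lower, at 12173 to 12395 CPM against 17209 to 18336 CPM.

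Summed over both genes, eEF1A mRNA was 17881 ± 477 CPM in control and 12304 ± 93.3 CPM in ELAPOR1 libraries. EEF1A2 was higher by 32.6 CPM and EEF1A1 was lower by 5610 CPM, so the sum followed EEF1A1 almost wholly. For each EEF1A2 count there were 780 to 902 EEF1A1 counts in the control group and 223 to 234 in the ELAPOR1 group. Levels here are shares of the RNA of bulk cultures, in which fewer cells of a type and less RNA per cell cannot be told apart.

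The eEF1B complex is built of EEF1B2 and EEF1D, which exchange the nucleotide on eEF1A, and EEF1G, a scaffold that holds them. All of its subunits had lower levels in ELAPOR1 cells. EEF1B2 (ENSG00000114942.14, chromosome 2, 206159585 to 206162928, plus strand) had 561, 607, 604 and 614 CPM in control libraries and 504, 521, 490 and 510 CPM in ELAPOR1 libraries. The groups did not overlap, and the difference of -15.2% (log2 fold change -0.24, SE 0.0302) was the smallest among the 6 members whose levels were lower without overlap.

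EEF1D (ENSG00000104529.17, chromosome 8, 143579697 to 143599541, minus strand) had 644, 692, 725 and 737 CPM in control libraries and 538, 516, 513 and 534 CPM in ELAPOR1 libraries. Its control libraries, with a mean of 699 ± 41.5 CPM, all lay above the ELAPOR1 mean of 525 ± 12.6 CPM and above each ELAPOR1 library. The log2 fold change was -0.41 (SE 0.0336).

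EEF1G (ENSG00000254772.10, chromosome 11, 62559601 to 62574086, minus strand) had 2223, 2315, 2329 and 2394 CPM in control libraries. It had 1717, 1719, 1719 and 1691 CPM in ELAPOR1 libraries. The ELAPOR1 libraries lay close to each other, with an SD of 14.0 CPM, and all below the control range, and the log2 fold change was -0.44 (SE 0.0261).

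EEF2 (ENSG00000167658.16, chromosome 19, 3976056 to 3985469, minus strand), the translocase, had 3563, 3687, 3654 and 3721 CPM in control libraries. In ELAPOR1 libraries it had 2785, 2742, 2805 and 2787 CPM. Its groups did not overlap, and its difference, a log2 fold change of -0.40 (SE 0.0246) or -24.0%, lay close to those of EEF1D and EEF1G.

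ETF1 (ENSG00000120705.13, chromosome 5, 138506095 to 138543300, minus strand) encodes eRF1, the factor that reads all stop codons in the cytosol. It had 258, 263, 268 and 247 CPM in control libraries and 292, 279, 287 and 292 CPM in ELAPOR1 libraries. The groups did not overlap and ETF1 was higher in ELAPOR1 libraries, but by a small amount, 1.11-fold (log2 fold change 0.15, SE 0.0311). With EEF1A2 it was the other member at a higher level in all ELAPOR1 libraries.

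TPT1 (ENSG00000133112.16, chromosome 13, 45333471 to 45341370, minus strand) encodes the translationally controlled tumor protein, which binds eEF1A and eEF1B and whose mRNA is a classic TOP mRNA. It had 1496, 1558, 1570 and 1606 CPM in control libraries and 1070, 1021, 1031 and 1037 CPM in ELAPOR1 libraries. TPT1 had the most negative difference of the 9 members, -33.2%, with a log2 fold change of -0.58 (SE 0.0271) and no overlap of the groups.

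EEF1E1 (ENSG00000124802.12, chromosome 6, 8073360 to 8102578, minus strand), also known as AIMP3, bears the family's name for its likeness to eEF1 subunits but is a part of the complex that holds many aminoacyl-tRNA synthetases together. Its levels were 51.3, 47.8, 51.2 and 52.9 CPM in control libraries and 50.7, 46.6, 43.0 and 50.01 CPM in ELAPOR1 libraries. The groups overlapped, and the log2 fold change of -0.090 had an SE of 0.0537. EEF1E1 was the member whose groups could not be separated beyond their spread.

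**Figure D2:**
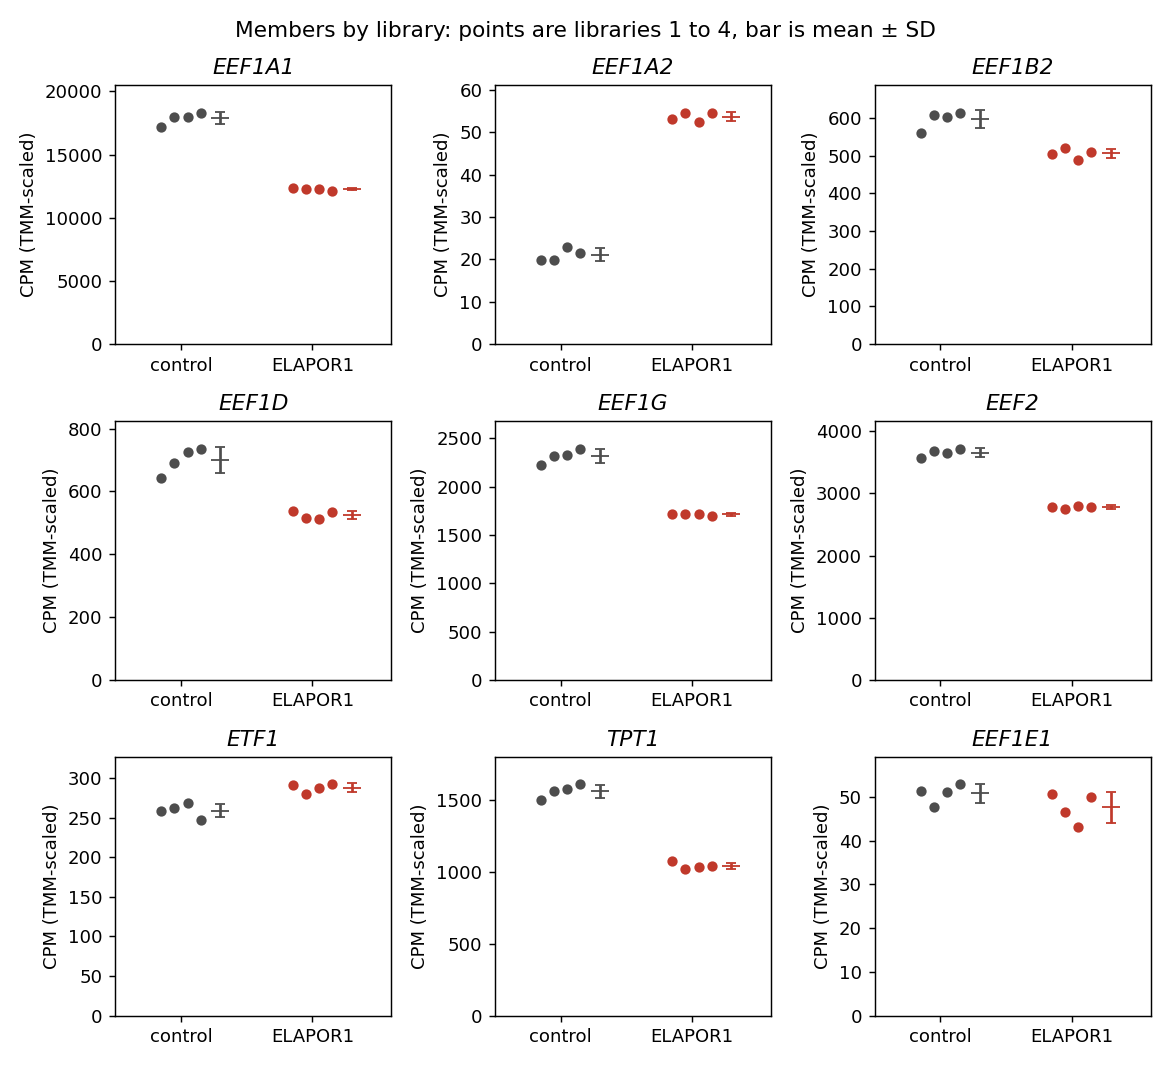
CPM of each of the 9 members in each library (points, control in grey and ELAPOR1 in red, vertical axes from 0), with the mean and SD of the 4 libraries of a group beside them. EEF1A2 and ETF1 were higher in ELAPOR1 libraries, EEF1A1, EEF1B2, EEF1D, EEF1G, EEF2 and TPT1 were lower, and EEF1E1 overlapped.

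Of the 9 members, 8 were past an adjusted p of 0.05 in edgeR, 2 higher and 6 lower, and for 8 the groups did not overlap. Among all 13860 tested genes 44.7% were past that threshold, 22.6% higher and 22.1% lower, and 39.2% did not overlap. As the members were chosen on this contrast, nothing is read from these counts. The median log2 fold change of the members was -0.395, while that of all tested genes was 0.000875, with quartiles of -0.184 and 0.168.

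The 6 lower members were not lower by the same factor, so their amounts relative to EEF1A1 differed between groups. These ratios are of counts, not per length, and are compared only between groups. For each 100 EEF1A1 counts there were 3.34 ± 0.0506 EEF1B2 counts in control and 4.13 ± 0.117 in ELAPOR1 libraries. The same ratio for EEF1D was 3.91 ± 0.142 and 4.29 ± 0.112, and for EEF1G it was 12.96 ± 0.086 and 13.97 ± 0.0497. All eEF1B subunits were therefore higher relative to EEF1A1 in ELAPOR1 libraries, with no overlap of the groups.

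EEF2 had 20.5 ± 0.183 counts per 100 EEF1A1 counts in control and 22.7 ± 0.285 in ELAPOR1 libraries. For ETF1, the termination factor, the ratio was 1.45 ± 0.0691 and 2.35 ± 0.0547. TPT1 alone among the other members kept an overlapping ratio, 8.66 to 8.77 in control and 8.32 to 8.67 in ELAPOR1 libraries, leaving aside EEF1A2, whose ratio was given above. Together the 9 members held 2.68 ± 0.0659% of all counts in control and 1.93 ± 0.013% in ELAPOR1 libraries.

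Within the control group, the 6 lower members varied together from library to library. Control replicate 1, the library with the most counts, had the lowest control level of all 6 and also of EEF1A2, whereas for ETF1 the lowest was control replicate 4 and for EEF1E1 it was control replicate 2. Over the 8 libraries, the deviations of log2 CPM from the group mean correlated with a Pearson r of 0.51 to 0.98 for the 15 pairs of these 6 members, with a median of 0.79. The highest was that of EEF1A1 with EEF1G. EEF1A2 correlated with the 6 at a median r of 0.47, ETF1 at -0.12 and EEF1E1 at 0.10. These values describe 8 libraries that share their scaling and depth, and they pool both groups. All 6 lower members were below the group mean in control replicate 1 and above it in control replicate 4. In the ELAPOR1 group not all of them moved together. In ELAPOR1 replicate 3, EEF1A1, EEF1G and EEF2 were above the group mean and EEF1B2, EEF1D and TPT1 below it.

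**Figure D3:**
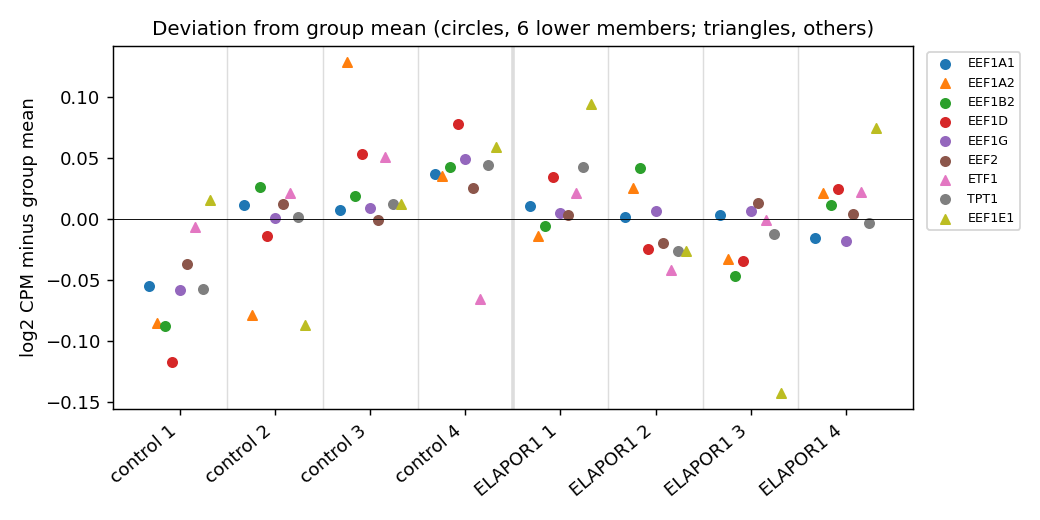
Deviation of log2 CPM from the group mean for each of the 9 members (colours) in each library, with the control libraries left of the heavy line and the ELAPOR1 libraries right of it. The 6 members with lower levels in ELAPOR1 cells (circles) were all below the mean in control replicate 1, as were EEF1A2 and ETF1 but not EEF1E1 (triangles).

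The summed CPM of the ribosomal protein genes varied with the same 6 members, with r of 0.96 for the deviations of EEF1A1, 0.92 for EEF1G, 0.88 for EEF1B2, 0.86 for EEF1D and TPT1 and 0.75 for EEF2. For EEF1A2, ETF1 and EEF1E1 the values were 0.47, -0.19 and 0.17. All of these r also pool both groups, and they were not computed for each group apart.

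Several members share sequence with other annotated genes, so their counts depend in part on how shared reads were divided by the authors' counting. Stretches of 75 bases were taken from the protein-coding GENCODE transcripts of each member, a length not matched to the reads, whose length is not given. Of those of EEF1A1, 21.4% occur in the transcripts of another gene, mostly EEF1A1P5, a processed pseudogene. EEF1A1P5 was listed at 115 ± 6.26 CPM in control and 87.7 ± 5.55 CPM in ELAPOR1 libraries (log2 fold change -0.40, edgeR adjusted p = 7.6e-09), and EEF1A1P6 at 10.02 and 7.71 CPM. The 39 pseudogene rows of EEF1A1 together came to 0.655 to 0.864% of its counts. None of the 2204 stretches of EEF1A2 and none of the 3159 of EEF2 occur in another gene.

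EEF1G shares 97.0% of its stretches, nearly all of them with AP002990.1, a read-through gene annotated across the EEF1G locus and listed at 13.8 CPM in control and 7.89 CPM in ELAPOR1 libraries. EEF1B2 shares 30.1%, mostly with its pseudogene EEF1B2P3, which was at 2.13 and 1.57 CPM. EEF1E1 shares 15.5% with its read-through gene EEF1E1-BLOC1S5, and the shares were 7.21% for EEF1D, 3.32% for TPT1 and 1.82% for ETF1. How the shared reads of these members and of EEF1A1 were divided is not known from the table, so part of each value is uncertain. Use of strand is not given, so reads of TPT1 and of TPT1-AS1 (9.75 and 6.51 CPM) may not be told apart where they overlap. The same holds for EEF1B2 and the overlapping NDUFS1 (133 and 136 CPM). Both of these annotated overlaps are short. TPT1-AS1 begins at 45341345 and TPT1 ends at 45341370, while EEF1B2 begins at 206159585 and NDUFS1 ends at 206159603. The antisense gene AL138963.3, at 45340039 to 45341183, also overlaps TPT1. EEF1D overlaps TIGD5 (18.9 and 15.4 CPM) and AC067930.5 (1.52 and 1.17 CPM).

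The genes around a member show whether its region differed as a whole. Around EEF1A2, the 10 nearest tested genes on each side had a median of -0.067 on the log2 scale, and 5 of the 20 were called higher and 3 lower. Over all tested genes 22.6% were called higher and 22.1% lower. SLC17A9, a vesicular nucleotide transporter, changed most on one side (1.63, edgeR adjusted p = 1.7e-12), and HELZ2 on the other (0.51, adjusted p = 1.6e-11). The 20 around EEF1A1 had a median of -0.052 with 3 higher and 4 lower, and the most changed on either side were the pseudogene RPL39P3 (-0.62, edgeR adjusted p = 0.121) and MEI4 (1.56, adjusted p = 1.4e-05).

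EEF1D and EEF1G lay among more lower genes than the other members did. Of the 20 neighbours of EEF1D, 10 were called lower, with a median log2 fold change of -0.16, and of those of EEF1G, 9 were, with a median of -0.066. Genes that overlap a member were kept among its neighbours. TIGD5 for EEF1D and AP002990.1 for EEF1G are such genes, and both were called lower. The share over all tested genes was 22.1%, and whether these regions had a part in the members' levels was not tested. For EEF1B2, EEF2, ETF1, TPT1 and EEF1E1 the neighbours' medians lay between -0.037 and 0.054.

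The genes whose log2 CPM tracked EEF1A1 most closely over the 8 libraries, out of 10694 ranked genes that averaged 5 CPM or more, were FDPS (Pearson r 0.9991), PSAT1 (0.9989) and GAS5 (0.9989). FDPS makes farnesyl diphosphate, PSAT1 acts in serine synthesis, and GAS5 is a non-coding RNA that is itself a TOP transcript. Their log2 fold changes were -0.87, -0.47 and -0.65, and 6.82% of the genes ranked had an r above 0.95. For EEF1A2 they were HS3ST1 (0.9973), a heparan sulfate sulfotransferase, ELAPOR1 itself (0.9970) and TNS4 (0.9970), a focal adhesion protein, and 6.09% had an r above 0.95. Genes that differ between the groups in the same direction reach high values in such a ranking.

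Other genes of the pathway were taken from lists. Of 14 enzymes that modify eEF1A or eEF2, 4 rose, 2 fell and 8 were not called, with a median log2 fold change of 0.046. EEF2K, the kinase that inhibits eEF2, rose from 21.5 to 28.7 CPM (0.42 on the log2 scale, SE 0.0752, adjusted p = 2.6e-05 in edgeR). DPH2 and DPH6, which act in making the diphthamide residue of eEF2, went opposite ways, at 0.39 (edgeR adjusted p = 6.5e-05) and -0.35 (adjusted p = 0.00478). The methyltransferase EEF1AKMT2, the most abundant of the list, had 59.0 and 62.0 CPM by this scale, which is not per length (0.075, adjusted p = 0.216).

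Of 17 other cytosolic factors of elongation, termination and recycling, 16 were tested, of which 5 rose, 5 fell and 6 were not called, with a median of 0.030. GSPT1 encodes eRF3a, the GTPase partner of eRF1, and rose from 167 to 235 CPM (0.49, SE 0.0331, adjusted p = 3.1e-14 in edgeR), more than ETF1 differed, though the difference between them was not tested. GSPT2, which encodes its close relative, had no counts. EIF5A, which helps the ribosome through difficult peptide bonds, rose slightly, from 528 to 567 CPM (0.10, adjusted p = 0.00331), while DHPS, the first enzyme of its hypusine modification, fell from 52.4 to 37.2 CPM (-0.49, edgeR adjusted p = 2.2e-09). SECISBP2, needed for selenocysteine insertion, fell by 0.31 on the log2 scale (adjusted p = 1.5e-06).

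Mitochondria have elongation and release factors of their own. Of 10 of these, 3 rose, 2 fell and 5 were not called, with a median of 0.008. GFM1, the mitochondrial counterpart of eEF2, rose from 79.7 to 107.6 CPM (0.43, edgeR adjusted p = 1.2e-10) and TUFM, that of eEF1A, from 173 to 205 CPM (0.25, adjusted p = 3.9e-07), while MRRF, a ribosome recycling factor, fell by 0.24 on the log2 scale (adjusted p = 3.0e-05). EEF2K, GSPT1 and TUFM lie on chromosome 16. Of 20 neighbours each, 10, 18 and 7 were called higher and 10, 2 and 13 not called, with medians of 0.24, 0.36 and 0.12. The share called higher over all tested genes was 22.6%. Any part of these regions in the rise of the 3 genes was not tested.

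Of the 10 other components of the complex to which EEF1E1 belongs, 3 rose, 4 fell and 3 were not called, with a median of -0.045. The scaffold AIMP2 rose from 48.5 to 62.3 CPM (0.36, SE 0.0497, edgeR adjusted p = 2.4e-07). The synthetases QARS1 (-0.36, adjusted p = 2.7e-09) and MARS1 (-0.29, edgeR adjusted p = 1.7e-09) fell, while IARS1, the most abundant, had 484 and 483 CPM.

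The ribosomal proteins were lower nearly throughout. Most of their mRNAs, like most of those of the elongation factors, are known for the TOP motif, and any part of it in their levels was not tested. Of 79 cytosolic ribosomal protein genes, 77 (97.5%) fell, with a median log2 fold change of -0.37. RPL3 fell from 1893 to 1269 CPM (-0.58, SE 0.032, adjusted p = 2.0e-14 in edgeR) and RPL4 from 2882 to 2029 CPM (-0.51, adjusted p = 1.4e-17). RPL26 fell by 0.50 (edgeR adjusted p = 6.4e-15), and RPLP0, the most abundant of the list, by 0.31 on the log2 scale (adjusted p = 1.4e-10). The exceptions, RPSA (996 and 999.5 CPM) and RPL14 (472 and 452 CPM), were named after their values were seen. The ribosomal protein genes held 7.42 ± 0.338% of all counts in control and 5.86 ± 0.0962% in ELAPOR1 libraries.

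Of 17 other genes known for TOP mRNAs, 16 were tested, of which 13 (81.2%) fell, 1 rose and 2 were not called, with a median of -0.30. EIF4B, a helicase cofactor of initiation, fell from 1024 to 644 CPM (-0.67, SE 0.0274, edgeR adjusted p = 5.8e-20). EIF3E fell by 0.50 (edgeR adjusted p = 1.1e-16), NACA by 0.40 (adjusted p = 9.7e-13) and PABPC1, the most abundant, by 0.30 on the log2 scale (adjusted p = 6.0e-12). The gene that rose was EIF3A, from 422 to 497 CPM (log2 fold change 0.24), named after its values were seen.

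**Figure D4:**
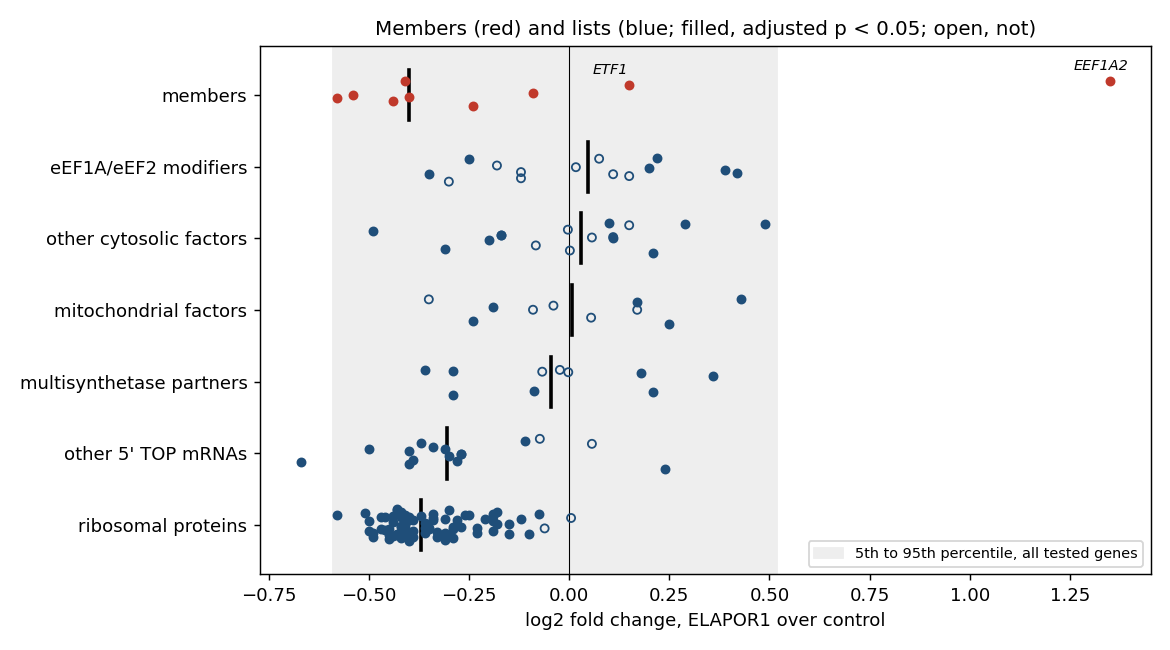
Log2 fold change (horizontal axis, ELAPOR1 over control) of the 9 members in red and of the tested genes of 6 lists in blue, with filled blue points past an adjusted p of 0.05 in edgeR, open ones not, black bars for medians and grey for the 5th to 95th percentile of all tested genes. The medians of the ribosomal proteins (-0.37) and other TOP mRNAs (-0.30) lay near that of the members (-0.395), those of the other lists near 0, and EEF1A2 stood alone at 1.35.

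Among the tested genes that had a RefSeq window, those with a pyrimidine run at the RefSeq start base were called lower more often, which is given as a description, without a test. A gene counted here if any of its windows held a run counted from a C at the start base itself, whereas the 4.07% given above is a share of windows. By gene, a run was found for 74.6% of 63 ribosomal protein genes and 81.8% of 11 other TOP genes with a window. It was also found for EEF1A1, EEF1B2, EEF2 and TPT1 as printed above. Of 724 tested genes with a run, 41.30% were called lower and 16.57% higher, and their median was -0.0923 on the log2 scale. Of 9189 without one, 21.05% were lower and 25.67% higher, with a median of 0.0199. Without the members and ribosomal proteins, 37.15% of 673 genes with a run and 20.91% of 9170 without one were called lower. The log2 fold change was -0.44 for EEF1G, with no run at its annotated start, and -0.40 for EEF2, which has one. The start that EEF1G uses in these cells is not known, and any part of the run in either value was not tested.

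**Figure D5:**
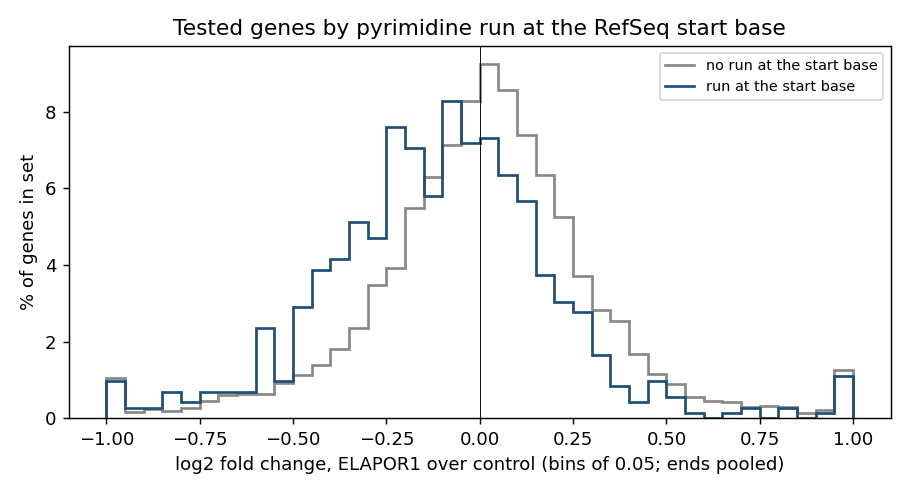
Percentage of tested genes in each bin of log2 fold change (horizontal axis, ELAPOR1 over control, end bins pooled) for 724 genes with a pyrimidine run at the RefSeq start base (blue) and 9189 without (grey). The blue curve lies to the left, with a median of -0.0923 against 0.0199.

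The cell type was checked against markers because EEF1A2 is the main eEF1A of neurons and striated muscle. The ductal epithelial markers KRT7, KRT8, KRT18, KRT19 and EPCAM were all tested, at a summed 11600 to 12900 CPM in control and 10800 to 11100 CPM in ELAPOR1 libraries, with KRT7 and KRT19 called higher and KRT8 and KRT18 lower. Of 8 striated muscle markers no more than traces were seen, a summed 0.0599 to 0.333 CPM in control and 0.0665 to 0.216 CPM in ELAPOR1 libraries, with MYH2, MYOD1 and TNNT3 at 0 in every library. Of 8 neuron markers, RBFOX3, STMN2, GAP43 and NEFL were at 0 in every library. TUBB3 and MAP2 passed the filter and both rose, TUBB3 from 19.3 ± 0.802 to 44.1 ± 2.71 CPM (1.19, SE 0.0635, edgeR adjusted p = 7.3e-17) and MAP2 from 2.03 to 3.39 CPM (0.75, adjusted p = 0.00276). SYN1 and SNAP25 were at 0 in the control group and at means of 0.0614 and 0.0540 CPM in the ELAPOR1 group. The summed neuron markers were thus 20.1 to 22.5 CPM in control and 44.1 to 49.6 CPM in ELAPOR1 libraries, nearly all of it TUBB3. Like EEF1A2, TUBB3 was higher in ELAPOR1 libraries, and any link between the levels of these genes was not tested. TUBB3 also lies on chromosome 16, where 6 of its 17 neighbours were called higher and 1 lower, with a median of 0.077. The shares over all tested genes were 22.6% and 22.1%. Fibroblast markers summed to 2.71 to 4.32 CPM in control and 2.77 to 3.13 CPM in ELAPOR1 libraries, with COL1A2, DCN and LUM at 0 and COL1A1 the 1 of 5 tested (-0.20, edgeR adjusted p = 0.422).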

How the data were processed

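RNA sequencing of 8 Panc 10.05 libraries, 4 control and 4 overexpressing ELAPOR1, gave the deposited table of expected counts, the estimated counts that RSEM gives, unscaled, of which 15.01% of nonzero values were not whole. Cutadapt, STAR, RSEM, DESeq2 and hg38 are named in the submitters' processing notes; their versions, the annotation release, the read length and the use of strand are not given in the sources used here. The labels name no batch.

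The counts were rounded, and edgeR 4.0.16 (R 4.3.3) was used for all tests across genes: filterByExpr, TMM, robust quasi-likelihood fit and test, two-sided, no covariate, Benjamini-Hochberg over 13860 genes, called under 0.05. The SE is the size of the log2 fold change over the square root of F. CPM is counts per 1e6 after TMM. The common biological coefficient of variation was 0.0401. The procedure was tested on simulated data with 200 changed genes. It recovered 68% of 1.3-fold, 84% of 1.5-fold, 90% of 2-fold and 92% of 3-fold changes. Of its calls, 3.47% were false. A gene that was not called may thus still differ. Totals of 13765509 to 18128757 counts set the precision. Coordinates, lengths and coding sequences are from GENCODE 29 on GRCh38, in which 58597 of 58870 identifiers were found without version and 47456 with it. Genes were ordered by start for neighbours. Correlations used log2 CPM.

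The members and lists were chosen with earlier results of these data known. Genes named are the members, in each list the 3 called genes with the largest log2 fold change at a mean of at least 5 CPM and the most abundant gene, the 3 most alike EEF1A1 and EEF1A2, pseudogenes and overlapping genes with at least 1 CPM, and the most changed neighbour on each side; a few others add context. Alternatives were DESeq2 size factors, total count and upper-quartile scaling, TMM without members and ribosomal proteins, a filter at 1 count, one at 10 counts per library, the DESeq2 1.42.0 Wald test, limma-voom (limma 3.58.1), a replicate block, leaving out single libraries, removal of trends against GC content and length (splines with 5 degrees of freedom, 99.8% of genes with a value), an adjusted p under 0.01, and, for the EEF1A2 share, counts per base or with pseudogenes.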

Additional observations from a re-analysis of the deposited data

Results flagged for a closer look

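Among the 82 sets of 4 libraries examined (members and named genes in each group), 3 had a library set apart from its other 3 libraries by more than Dixon's 95% critical value for 4 samples, and chance alone gives about 4.1. EEF1G had 1691 CPM in ELAPOR1 replicate 4, against 1717 to 1719 CPM in the other ELAPOR1 libraries. DHPS, the hypusine pathway enzyme, had 35.7 CPM in ELAPOR1 replicate 4, against 37.6 to 38.0 CPM. ACTA1, skeletal muscle actin and one of the markers of striated muscle, had 0.144 CPM in ELAPOR1 replicate 3, against 0.0577 to 0.0665 CPM, a difference of single counts.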

How the results depend on the processing

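The members' values are a description here too, since this contrast chose them, and the median of all tested genes stayed within 0.0222 of 0. Over the alternatives the log2 fold change of EEF1A1 ran from -0.57 (without control replicate 1) to -0.52 and that of EEF1A2 from 1.31 to 1.44. With GC and length trends removed, values moved by more than the spread within groups: EEF1A2 was 1.44, EEF1B2 -0.15, EEF1D -0.34, ETF1 0.11 and TPT1 -0.64, and EEF1E1 changed sign to 0.011; the cause was not tested. Under it 66 ribosomal protein genes were called lower and 1 higher, where edgeR with TMM called 77 lower and 0 higher (0 at an unadjusted p under 0.05, and 0 by DESeq2 and limma-voom). Of the genes of the 5 lists other than ribosomal proteins and markers, 14 to 19 were called higher and 24 to 28 lower. Per base the EEF1A2 share was 0.135% in control and 0.499% in ELAPOR1 libraries. Deviations of same-numbered libraries correlated at -0.112 to 0.0355, and those of other library pairs across the groups at -0.0929 to 0.106. No effect shared by replicate number was thus seen, though this cannot show whether the libraries were made in pairs. With the replicate block EEF1A1 was -0.54 and EEF1A2 1.35, and 5926 genes were called in place of 6193. EEF1A2 rests on 338 to 944 counts a library, and all levels are relative to the other RNA of a library.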
